A study of Mus musculus with 2 samples.

Results

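The telomere-proximal ends of 18 mouse autosomes, pooled, held more enrichment peaks per Mb than the rest of these chromosomes, although 5 of the 18 ends held fewer. Pooled in the same way, the stretch just inward of the ends, counted with the rest, was denser still. On each of chromosomes 1 to 19, without chromosome 8, the distal end was taken as the last 5 Mb before the largest peak end found in the 2 peak lists together, and a peak belonged to it when its midpoint lay there. This gave 3176 of the 55292 peaks of the control list and 2721 of the 45579 peaks of the knockdown list, or 5897 of 100871 in all. The rest of the same chromosomes, from the first peak to the start of the distal window, held 46284 and 37723 peaks. The ends made up 3.94% of the 2283 Mb so spanned, and they held 6.42% of the control peaks on these chromosomes (Wilson 95% interval 6.21 to 6.64%) and 6.73% of the knockdown peaks (6.49 to 6.98%).

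Both libraries came from E14 mouse embryonic stem cells, a line of pluripotent cells. The control culture was transfected with a short hairpin RNA against GFP (shGFP, 1 library). The other received a hairpin against Dnmt3L (shDnmt3L, 1 library). With 1 sample for each hairpin there is no replicate check and no test between the lists, and what differs between them differs between 2 libraries. The study calls the assay a methylated DNA precipitation for 5-methylcytosine, whereas the protocol describes capture by glucosylation with a Hydroxymethyl Collector kit, which binds 5-hydroxymethylcytosine. For this reason the text speaks of enrichment peaks and names no modification. The extent of the knockdown was not analysed here, and read depth is unknown. The intervals below hold counting error alone and take each peak as an independent count, although peaks that lie side by side may share their source.

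Dnmt3L has no catalytic activity of its own and works as a partner of the de novo DNA methyltransferases Dnmt3a and Dnmt3b, which place methyl groups on cytosine. Tet enzymes oxidise 5-methylcytosine to 5-hydroxymethylcytosine, a mark found at many gene-rich, active regions of embryonic stem cells. Mouse autosomes have the centromere at one tip, where coordinates begin, and their other tip ends in the long arm's telomere. DNA next to telomeres is known to carry DNA methylation, and loss of DNA methyltransferases in mouse embryonic stem cells is known to alter telomere length and recombination. The peak lists placed the first peak of these chromosomes between positions 2999558 and 3650847, and the rest of each chromosome was counted from there. The last position used here is a called peak and not the chromosome's end, and the telomere repeat itself is not part of the measurement.

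In both libraries the pooled distal ends were denser in peaks than the rest of their chromosomes. The shGFP list had 35.3 peaks per Mb at the ends (exact Poisson 95% interval 34.1 to 36.5) and 21.1 in the rest, a ratio of 1.67 (exact conditional binomial 95% interval 1.61 to 1.73). The shDnmt3L list had 30.2 peaks per Mb at the ends (29.1 to 31.4) and 17.2 in the rest, a ratio of 1.76 (1.69 to 1.83). Neighbouring peaks lay closer together, with a median distance between midpoints of 10696.5 bp at the ends and 15791 bp in the rest in shGFP, and of 12399.5 and 17841 bp in shDnmt3L. Pooled over the chromosomes, the opposite tips were sparser. The distal end held more peaks than the first 5 Mb of its own chromosome on 12 chromosomes in shGFP and on 13 in shDnmt3L. On the others it held fewer, among them chromosomes 12, 13, 17, 18 and 19 in both lists. In shGFP it held 16 peaks against 137 on chromosome 17, and 198 against 256 on chromosome 19. The first 5 Mb from the first peak of each chromosome held 1570 shGFP and 1195 shDnmt3L peaks, or 17.4 and 13.3 per Mb, so that the distal ends were 2.02 times as dense as these centromere-proximal stretches in shGFP (1.90 to 2.15) and 2.28 times in shDnmt3L (2.13 to 2.44).

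The pooled values covered a split among chromosomes that was the same in both libraries. Of the 18 distal ends, 13 were denser than the rest of their own chromosome and 5 were sparser, in shGFP and in shDnmt3L alike, and the interval of the ratio excluded 1 for all 18 in each list. Windows that differ from their chromosome were common. Among all 448 windows of 5 Mb counted inward from the last position, 34.8% were denser than the remainder of their chromosome by the same rule in shGFP and 49.1% were sparser, against 33.5% and 49.3% in shDnmt3L. Windows of equal length gave the spread. The 18 end windows of 5 Mb held from 8 to 395 peaks in shGFP, with a median of 170 and an SD of 120.2, and the 430 other windows from 2 to 468, with a median of 84.5 and an SD of 81.2. In shDnmt3L the SD was 105.7 peaks per window at the ends and 69.8 elsewhere. No end had an intermediate ratio: in shGFP the sparse ends stopped at 0.519 and the dense ends began at 1.47, and in shDnmt3L the limits were 0.554 and 1.31.

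**Figure D1:**
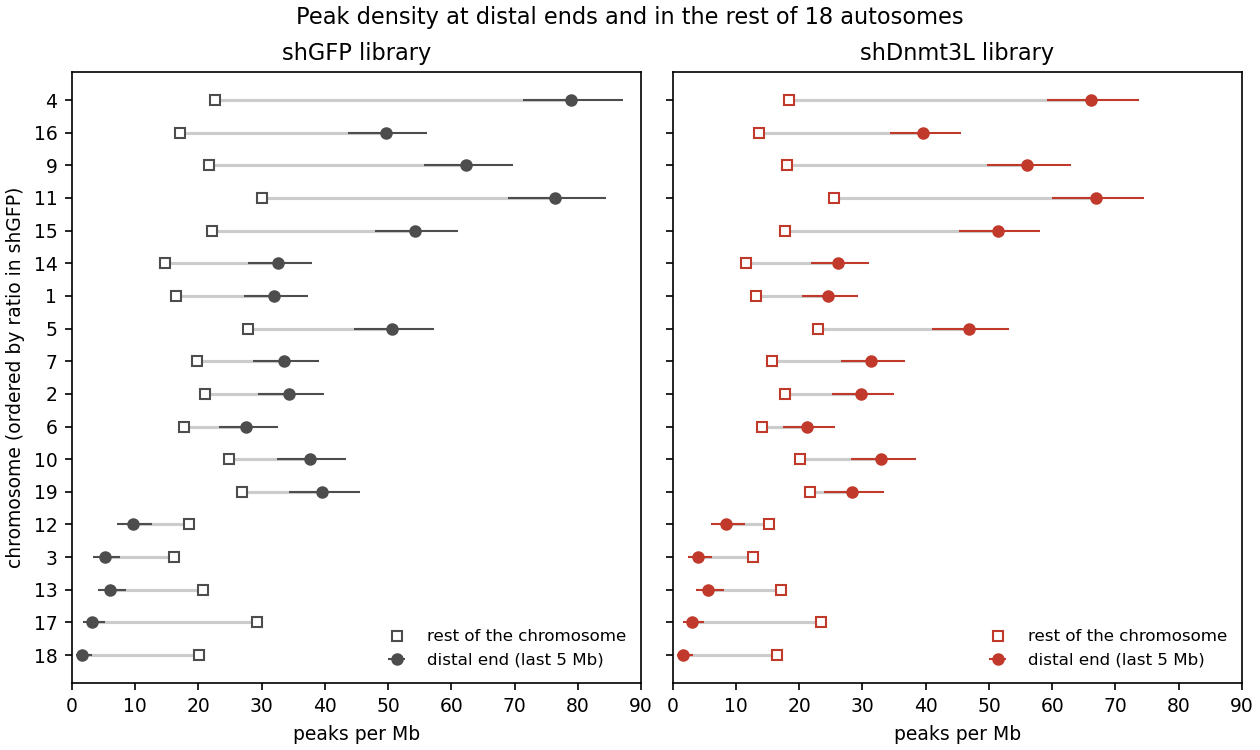
Peaks per Mb at the distal end (filled circles, with exact Poisson 95% intervals) and in the rest of the chromosome (open squares) for 18 autosomes, in the shGFP library (left) and the shDnmt3L library (right). The ends of chromosomes 4, 16, 9 and 11 lie far to the right of their squares, while those of chromosomes 12, 3, 13, 17 and 18 lie to the left in both libraries.

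The chromosomes with the highest ratios of end to rest were 4, 16 and 9. Chromosome 4 had 395 peaks in its last 5 Mb in shGFP, or 79.0 per Mb against 22.7 in its rest, a ratio of 3.48 (3.13 to 3.87), and 331 in shDnmt3L, with a ratio of 3.60 (3.20 to 4.03). Chromosome 16 had 248 and 198 end peaks, with ratios of 2.91 (2.53 to 3.33) in shGFP and 2.90 (2.49 to 3.38) in shDnmt3L. Chromosome 9 had 312 and 280, with ratios of 2.88 (2.55 to 3.24) and 3.09 (2.72 to 3.50). Chromosome 11 came next in shGFP, and its end was the second richest in that list by number, with 382 peaks. On chromosomes 9 and 11 no other 5 Mb window of the chromosome held as many peaks in either list, and in shDnmt3L this was also so on chromosome 15. On chromosomes 4 and 16 a single other window was denser, in both lists.

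At the other extreme in shGFP stood chromosomes 18, 17 and 13. The last 5 Mb of chromosome 18 held 8 peaks in each list, or 1.60 per Mb, against 20.1 per Mb in its rest in shGFP and 16.6 in shDnmt3L. The ratios were 0.0796 (0.0343 to 0.157) and 0.0966 (0.0416 to 0.191). Chromosome 17 had 16 shGFP and 15 shDnmt3L peaks at its end, although its rest, with 29.2 peaks per Mb in shGFP, was denser than that of any other chromosome but 11. Its ratios were 0.109 (0.0625 to 0.178) and 0.128 (0.0713 to 0.211). Chromosome 13 had 30 and 28 peaks, with ratios of 0.290 (0.195 to 0.415) and 0.328 (0.217 to 0.475). In shDnmt3L the ratio of chromosome 3, 0.315 (0.192 to 0.488), was lower than that of chromosome 13. In shGFP chromosome 3 had 0.323 (0.211 to 0.475). The ends of chromosomes 17 and 18 were the sparsest 5 Mb window of their chromosome in both lists. Chromosome 3, with 26 and 20 peaks, and chromosome 12, with 48 and 42, completed the sparse ends, which together held 128 of the 3176 shGFP end peaks and 113 of the 2721 in shDnmt3L. The remaining ends held between 138 and 395 peaks in shGFP and between 106 and 335 in shDnmt3L.

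Within the 5 Mb the density was uneven, and the outermost stretch was not dense. In shGFP the 18 ends together had 16.6 peaks per Mb in the last 1 Mb (14.7 to 18.5), which was below the 21.1 of the rest, then 26.4 (24.1 to 28.9) between 1 and 2 Mb and 44.5 (42.7 to 46.3) between 2 and 5 Mb. In shDnmt3L the same steps were 14.3 (12.6 to 16.1), 23.4 (21.3 to 25.8) and 37.8 (36.2 to 39.5), against 17.2 in the rest. Chromosome by chromosome, the last 1 Mb held fewer peaks than 1 Mb of the rest on 13 of 18 chromosomes in shGFP and on 12 in shDnmt3L. Its count went from 1 to 48 peaks in shGFP, with a median of 13.5, and from 1 to 41 in shDnmt3L, with a median of 8. With a window of 2 Mb in place of 5 Mb, the density ratio was 0.992 (0.923 to 1.07) in shGFP and 1.07 (0.986 to 1.15) in shDnmt3L, and both intervals included 1. The higher density of the 5 Mb windows thus lay in their inner part.

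Farther inward the density stayed high. Between 5 and 10 Mb from the last position the 1 Mb bins held from 35.7 to 51.8 peaks per Mb in shGFP and from 29.1 to 44.5 in shDnmt3L. From 2 to 30 Mb, all 28 bins of shGFP had an interval above the density of the rest, as did 27 of 28 in shDnmt3L, and between 20 and 30 Mb the bins had dropped to 24.8 to 34.8 and 19.2 to 29.6 peaks per Mb. The dense zone therefore extended well past the 5 Mb limit, and a window of 10 Mb gave larger ratios, 1.97 (1.92 to 2.02) in shGFP and 2.03 (1.98 to 2.09) in shDnmt3L.

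**Figure D2:**
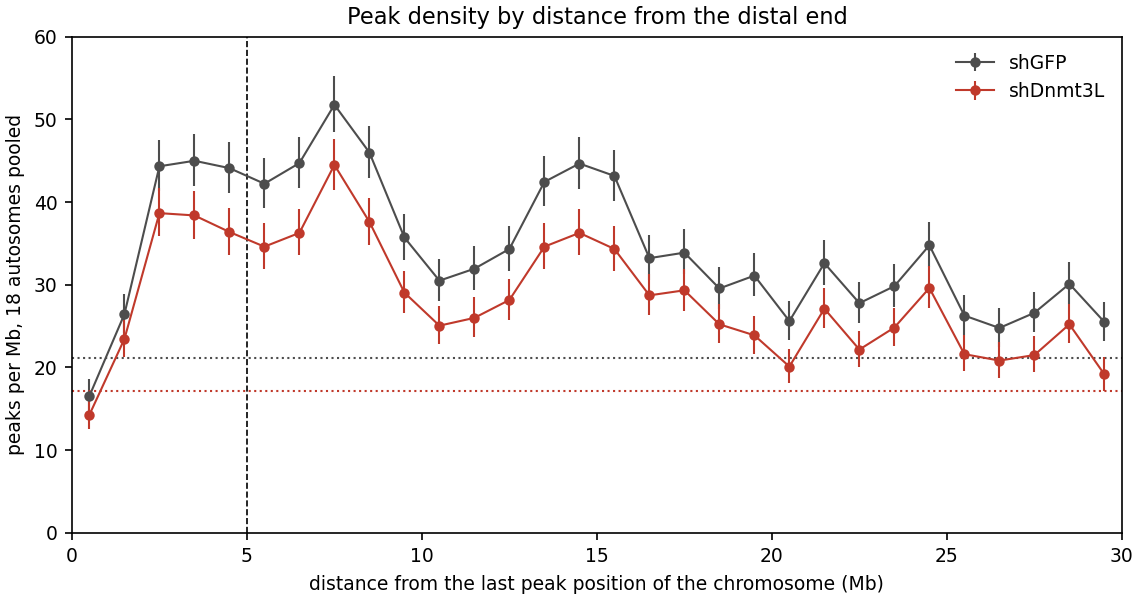
Peaks per Mb in 1 Mb bins by distance from the last peak position, pooled over 18 autosomes, with exact Poisson 95% intervals. Dotted lines give each library's density in the rest of the chromosomes (21.1 and 17.2 peaks per Mb) and the dashed line marks 5 Mb; both libraries start below the dotted lines and climb above 36 peaks per Mb between 2 and 5 Mb.

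End peaks were slightly wider and higher in score than the peaks in the rest of the chromosomes. Peaks between 5 and 10 Mb, counted in the rest, were so too. Median width in shGFP was 2053 bp at the ends (quartiles 1677 and 2411) and 1971 bp in the rest, a difference of 82 bp (95% interval 59.2 to 104.8). In shDnmt3L it was 2419 bp (quartiles 2087 and 3182) and 2355 bp, a difference of 64 bp (45.3 to 87.8). The difference was small beside the spread of the peaks themselves, and it was seen on 10 of 18 chromosomes in each list. Among the 13 ends with 100 peaks or more, the median width exceeded that of the rest on 9 chromosomes in shGFP and on 10 in shDnmt3L. The clearest excess was at the wide side of the distribution: 1.73% of shGFP end peaks were 5 kb or wider against 1.02% in the rest, and 6.76% against 4.38% in shDnmt3L. On the 18 autosomes together 1.06% of shGFP and 4.54% of shDnmt3L peaks were that wide, and over the whole lists 1.34% and 5.18%. The excess was not limited to the ends. The 1 Mb bins from 5 to 10 Mb, counted in the rest, held 9 to 20 such peaks in shGFP and 27 to 42 in shDnmt3L. Those of the ends held 5 to 18 and 20 to 53. In the outermost 2 Mb the median width differed from the rest by −2 bp in shGFP (−62.2 to 35.5) and by 9 bp in shDnmt3L (−32.3 to 49.3). With a window of 10 Mb the difference was 87 bp in shGFP (69.5 to 101.3) and 59 bp in shDnmt3L (46.5 to 75.2). The 1 Mb bins from 5 to 10 Mb had median widths of 2032 to 2067.5 bp in shGFP and 2377 to 2428 bp in shDnmt3L.

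The score in each list, the peak caller's own value, had a median of 105.8 at the ends and 94.1 in the rest in shGFP, and of 109 and 96.2 in shDnmt3L. The 1 Mb bins from 5 to 10 Mb had median scores of 99.6 to 104 in shGFP and 98.4 to 107.6 in shDnmt3L. The highest of 4 score bands of about equal number held 31.05% of the shGFP end peaks and 23.3% of the rest, and in shDnmt3L 30.2% and 23.2%. With more and wider peaks, 7.85% of the sequence at the ends lay under peaks in shGFP, against 4.41% in the rest, a ratio of 1.78. In shDnmt3L the covered shares were 8.67% and 4.58%, a ratio of 1.89. With a window of 2 Mb these ratios were 0.987 (0.918 to 1.06) and 1.12 (1.04 to 1.21), with intervals rescaled from those of peak density. The range among chromosomes was wide. In shGFP the covered share of the end went from 0.281% on chromosome 18 to 18.7% on chromosome 4, and in shDnmt3L from 0.353% on chromosome 18 to 19.97% on chromosome 11.

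Most end peaks had a partner in the other list, that is, they overlapped one of its peaks by at least 1 bp. In shGFP 2478 of 3176 end peaks were shared, or 78.0% (Wilson 95% interval 76.5 to 79.4%), against 73.1% in the rest, a difference of 4.89 percentage points (Newcombe 95% interval 3.36 to 6.35). The difference was 2.83 points (1.42 to 4.13) with lists of equal length and 2.30 (−0.87 to 5.21) with a window of 2 Mb. With a window of 10 Mb it was 4.66 (3.59 to 5.70). It was 3.57 (1.91 to 5.18) when partners had to overlap by 50% of both peaks. The other 698, 21.98% of the end peaks, had no partner, and over the whole shGFP list 25.5% had none. The share with a partner was higher at the end than in the rest on 14 of 18 chromosomes, and it lay between 67.7% on chromosome 19 and 84.9% on chromosome 9 among the 13 ends with 100 peaks or more. When the list was cut by score into 4 bands of about equal number, the ends and the rest differed in the lowest band alone by intervals that did not overlap. In that band 36.4% (32.9 to 40.0%) of end peaks and 31.7% (30.9 to 32.6%) of the rest were shared. In the next band the shares were 69.6% (66.2 to 72.9%) and 69.4%, in the one above it 95.5% (93.8 to 96.7%) and 94.6%, and in the highest 99.9% and 99.9%. The shDnmt3L peaks covered 8.67% of the ends and 4.58% of the rest. How much this adds to overlaps of 1 bp or more at the ends was not tested.

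In shDnmt3L 2385 of 2721 end peaks were shared, or 87.7% (86.4 to 88.8%), and 87.1% of the rest, a difference of 0.508 points (−0.824 to 1.74). The interval included 0. The difference depended on the window, at −3.59 points (−6.57 to −0.973) with 2 Mb and 1.72 points (0.825 to 2.58) with 10 Mb, opposite directions with intervals that exclude 0. Without chromosome 15 the 2 Mb value was −1.403 (−4.44 to 1.19). The 336 end peaks without a partner, 12.3%, can be set beside the 12.6% of the whole list. Without chromosome 11 the difference was −0.0764 points and without chromosome 15 it was 1.33, so that single chromosomes set its direction and size. Chromosomes 7 and 15 held 34 and 51 of the unshared shDnmt3L end peaks, or 25.3% of them, with 15.2% of all shDnmt3L end peaks. At these ends 78.3% and 80.2% of the shDnmt3L peaks had a partner, the lowest shares among the 13 ends with 100 peaks or more, while chromosome 16 had the highest at 93.4%.

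Within the 5 Mb, sharing in both lists was lowest in the last 1 Mb, which in shDnmt3L rested on chromosome 15. In the last 1 Mb 72.5% of shGFP peaks (67.2 to 77.2%) and 82.5% of shDnmt3L peaks (77.4 to 86.6%) had a partner. Between 1 and 2 Mb the shares were 77.7% (73.8 to 81.2%) and 84.4% (80.6 to 87.5%). Between 2 and 5 Mb the shares were 78.8% (77.1 to 80.4%) and 89.0% (87.5 to 90.3%). In shDnmt3L 45 of the 257 peaks of the last 1 Mb were unshared, and 20 of these lay on chromosome 15. Without chromosome 15 the shared share of the last 1 Mb in shDnmt3L was 88.5% (83.6 to 92.1%), above the 84.3% (80.3 to 87.6%) that it then had between 1 and 2 Mb. In shGFP leaving it out gave 71.2% (65.5 to 76.2%) in the last 1 Mb and 77.6% (73.4 to 81.3%) between 1 and 2 Mb.

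**Figure D3:**
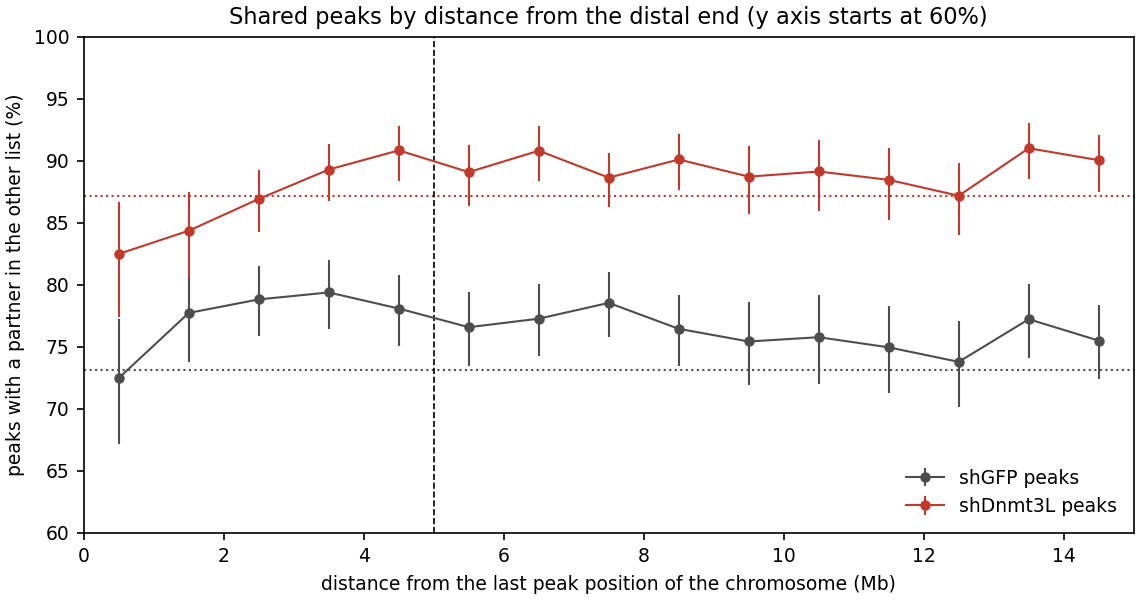
Share of peaks with a partner in the other list in 1 Mb bins by distance from the last peak position, pooled over 18 autosomes, with Wilson 95% intervals; the y axis starts at 60%. Dotted lines give the shares in the rest of the chromosomes (73.1% in shGFP, 87.1% in shDnmt3L), and among the bins drawn both libraries have their lowest value in the last 1 Mb (72.5% and 82.5%).

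Unshared end peaks were of different kinds in the 2 lists. In shGFP their median width was 1652 bp, below the 2159 bp of end peaks with a partner, and their median score was 61.8, below 134. In shDnmt3L they were the wider ones, at 2679 bp compared with 2408 bp, although their median score of 85.2 was below the 114 of the others. The rest of the chromosomes had the same contrast, with median widths of 1597 bp without and 2088 bp with a partner in shGFP, and of 2476 and 2342 bp in shDnmt3L. The nearest peak of the other list was a median of 6213.5 bp away in shGFP and 6053 bp in shDnmt3L, compared with 11063.5 and 7929.5 bp in the rest, where peaks lie farther apart. Among unshared shDnmt3L peaks 54 of 336 at the ends were 5 kb or wider, 16.1% (Wilson 95% interval 12.5 to 20.4%), against 461 of 4850 in the rest, 9.51% (8.71 to 10.4%). In shGFP 0 of 698 unshared end peaks were that wide, which allows a share of up to 0.547% (Wilson), and 1 of 12434 in the rest. Chromosome 15 held 51 of the 336 unshared shDnmt3L end peaks, among them 3 neighbouring ones of 13.1 to 21.8 kb. The share of such wide peaks without this chromosome was not computed.

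Of the 5 end peaks of highest score in each list, all in shGFP and all but 1 in shDnmt3L had a partner in the other list. Of all end peaks 78.0% and 87.7% had one. In the highest of the 4 score bands the share at the ends was 99.9% in shGFP and 90.4% (88.2 to 92.2%) in shDnmt3L. In the rest that band had 99.9% and 90.5%. The highest score in each list belonged to chr4:151832039-151835342 in shGFP (3304 bp, score 3100) and to chr4:151831905-151835374 in shDnmt3L (3470 bp, score 3204), which overlap and lie 3774 kb from the last position of chromosome 4. The shGFP peak of rank 2, chr1:193296489-193298976 (score 3093), overlapped the shDnmt3L peak of rank 4, chr1:193295610-193298976 (score 2399). The peaks of rank 3, chr11:120714333-120718474 in shGFP (score 2694) and chr11:120714301-120718506 in shDnmt3L (score 2561), also overlapped and lay 972 kb from the last position. In shGFP these were followed by chr15:98678577-98687564 (8988 bp, score 2161) and chr10:126981954-126992528 (10575 bp, score 2025), with 84.7% and 98.4% of their length under shDnmt3L peaks. Scores rank peaks within a list and are not compared between lists.

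Among these strongest peaks, 1 had no partner. A single shDnmt3L peak filled the 27.7 kb of chr11:118894950-118922607. Its score, 2649, had rank 2 among the shDnmt3L end peaks, and the nearest shGFP peak was 2.14 kb away. The next unshared shDnmt3L peaks by score were chr15:102801804-102823594 (21.8 kb, score 1346), chr11:118938559-118953964 (15.4 kb, score 1316), chr16:94076921-94096202 (19.3 kb, score 1197) and chr15:98618453-98632561 (14.1 kb, score 1062). By contrast, the strongest unshared shGFP end peak, chr4:150866713-150870121, was 3409 bp wide with a score of 199.7. The others were chr9:119848409-119851912 (3504 bp, score 137), chr15:102663788-102665910 (2123 bp, score 134), chr14:120901901-120904930 (3030 bp, score 126) and chr4:151085901-151088558 (2658 bp, score 124). No gene was assigned to any of these intervals, since no annotation of their build was used here.

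Peaks of 10 kb or more were nearly all in the knockdown library. The shDnmt3L ends held 17 (exact Poisson 95% interval 9.90 to 27.2), or 0.625% of their peaks, and the shGFP ends 1 (0.0253 to 5.57). On the 18 autosomes together 0.450% of shDnmt3L peaks and 0.0263% of shGFP peaks were that wide, and over the whole lists 0.535% and 0.0524%. In the rest of the chromosomes there were 165 and 12. The ratio of shDnmt3L to shGFP numbers was 17.0 at the ends (2.66 to 710.5) and 13.8 in the rest (7.66 to 27.2), so that no difference between ends and rest could be read from it. Per Mb, wide shDnmt3L peaks were 2.51 times as frequent at the ends as in the rest (1.43 to 4.14). Without chromosome 15 this ratio was 1.86 (0.942 to 3.34) and with a window of 2 Mb 1.402 (0.378 to 3.65). With a window of 10 Mb it was 2.49 (1.65 to 3.67). The 1 Mb bins from 5 to 10 Mb, counted in the rest, held 3, 1, 4, 2 and 5 such shDnmt3L peaks. Those of the ends, from the last position inward, held 3, 1, 5, 1 and 7. As a share of the peaks present, 0.625% at the ends against 0.437% in the rest, the ratio was 1.43 (0.812 to 2.36), and its interval included 1. At 5 kb or more the ratio of densities between ends and rest was 2.71 (2.31 to 3.16) in shDnmt3L and 2.85 (2.12 to 3.78) in shGFP. Bins from 5 to 10 Mb, inside the rest, held numbers of such peaks like those of the end bins, as given above.

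Of the 17 wide shDnmt3L end peaks, 12 had no shGFP partner, or 70.6% (Wilson 95% interval 46.9 to 86.7%). In the rest 90 of 165 had none, or 54.5% (46.9 to 62.0%), and on the 18 autosomes together 102 of 182. In the whole list, which also holds the chromosomes left out here, 42.6% of such peaks had none. The difference between ends and rest was 16.0 points (−8.81 to 33.9). Of the 5 with a partner, 2 overlapped a single shGFP peak and 3 overlapped several. The wide peaks fell on 9 of the 18 chromosomes: 5 on chromosome 15, 3 on chromosome 11, 2 each on chromosomes 4 and 9, and 1 each on chromosomes 5, 7, 10, 14 and 16. None lay on the 5 sparse ends, and none on chromosomes 1, 2, 6 and 19. Joined across gaps of up to 100 kb they formed 13 groups, and 3 of these held more than 1 wide peak.

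**Figure D4:**
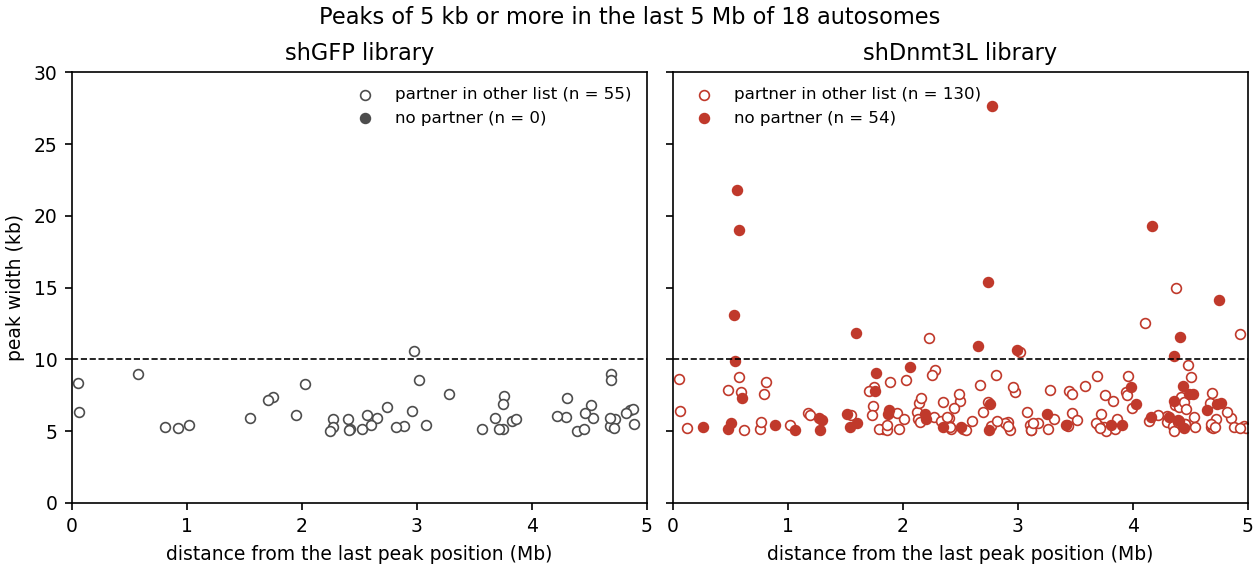
Width of every peak of 5 kb or more in the last 5 Mb of 18 autosomes against its distance from the last peak position, in shGFP (left) and shDnmt3L (right). Filled points have no partner in the other list, and the dashed line marks 10 kb; 1 shGFP peak and 17 shDnmt3L peaks lie above it, and 54 of the shDnmt3L points but none of the 55 shGFP points are filled.

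The longest group lay on chromosome 15 from 102782689 to 102847619, about 0.556 Mb from the last position. Its 3 wide peaks measured 19016, 21791 and 13065 bp and added up to 53.9 kb of a span of 64.9 kb, in which no shGFP peak was called. On chromosome 11, the interval from 118894950 to 118953964 held the 27.7 and 15.4 kb peaks among 5 shDnmt3L peaks, and 3 shGFP peaks with 7.03 kb in all. On chromosome 9, peaks of 14955 and 10208 bp lay side by side from 119465515 to 119490833. The first, with a score of 1859, lay over 3 shGFP peaks that covered 51.7% of it, and the second over none.

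The wide peaks that stood alone included chr16:94076921-94096202 (19.3 kb), chr4:154006290-154018134 (11.8 kb), chr5:148111268-148122789 (11.5 kb) and chr7:149841628-149852536 (10.9 kb), each with no shGFP peak. On chromosome 4, chr4:151495373-151507912 (12.5 kb) lay over a single shGFP peak that covered 24.1% of it. The widest shGFP end peaks were, after the 10.6 kb peak on chromosome 10, chr15:98678577-98687564 (8.99 kb), chr4:155029450-155038419 (8.97 kb), chr11:118667981-118676543 (8.56 kb) and chr5:147829241-147837790 (8.55 kb). Each of them overlapped at least 1 shDnmt3L peak, over 84.7 to 100% of its length.

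Between the lists, end peaks were fewer in shDnmt3L and the length under them was greater, as in the rest of the chromosomes. The shDnmt3L list was 455 peaks shorter at the ends, 14.3% of the shGFP number, and 8561 shorter in the rest, 18.5%. The share of peaks at the ends was 1.05 times as high in shDnmt3L as in shGFP (0.995 to 1.10), an interval that included 1. End peaks were fewer in shDnmt3L on 17 of 18 chromosomes and equal, at 8, on chromosome 18. Relative to shGFP the number ranged from 71.7% on chromosome 19 to 94.8% on chromosome 15 among the other 17. The length under peaks at the ends was 7063 kb in shGFP and 7799 kb in shDnmt3L, 10.4% more (4.86 to 16.3%). In the rest it was 3.96% more (2.56 to 5.39%). These intervals overlapped, but they are the intervals of the ratio of peak numbers, rescaled. They hold no variation in peak width and take the 2 lists as independent, although most peaks are shared. Without chromosome 15 the length in shDnmt3L was 7.48% more at the ends (1.82 to 13.4%) and 4.11% more in the rest. Without any other single chromosome it was between 9.61 and 11.4% more at the ends.

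By windows of 1 Mb, the end of chromosome 15 stood apart. Its last 1 Mb, from 102371488 to 103371487, held 24 shGFP and 39 shDnmt3L peaks, a ratio of shares of 1.99 (1.17 to 3.45), and 20 of the latter had no shGFP partner. Length under peaks there was 51.8 kb in shGFP and 186 kb in shDnmt3L. It was the only one of the 63 end windows with 20 or more peaks whose interval excluded 1. Among all 1278 such windows of the 18 autosomes, 0.156% had an interval above 1 and 0% had one below. The next windows, with intervals that included 1, were the last 1 Mb of chromosome 16 (14 and 15 peaks, ratio 1.31) and chromosome 7 from 150504999 to 151504998 (29 and 31 peaks, ratio 1.31). After these came chromosome 12 from 118147503 to 119147502 (24 and 25 peaks, ratio 1.27) and chromosome 13 from 115282933 to 116282932 (15 peaks in each list, ratio 1.22). A window of chromosome 7 from 149504999 to 150504998 with 35 peaks in each list, and one of chromosome 2 from 179666555 to 180666554 with 38 in each, had the same ratio as that of chromosome 13. At the low end were 2 windows of chromosome 6, each with a ratio of 0.611: one from 146395625 to 147395624 with 18 and 9 peaks, the other from 148395625 to 149395624 with 14 and 7. Next was chromosome 19 from 57305995 to 58305994, with 58 and 37 peaks and a ratio of 0.780.

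**Figure D5:**
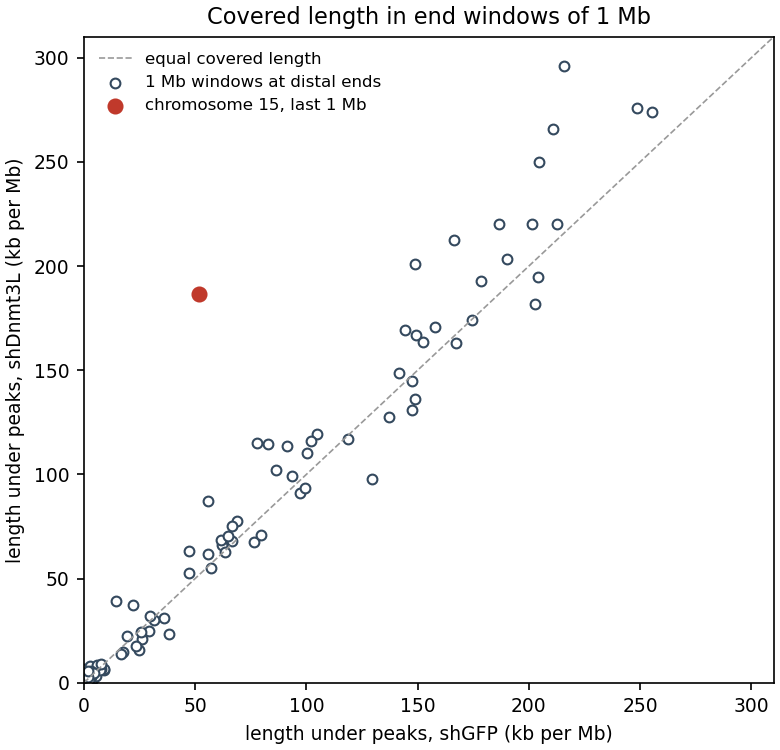
Length under peaks in each 1 Mb window of the distal ends, shDnmt3L (vertical) against shGFP (horizontal), in kb; the dashed line marks equal length. The last 1 Mb of chromosome 15 (filled point) has 51.8 kb in shGFP and 186 kb in shDnmt3L, and the other windows lie closer to the line.

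For peaks found in both libraries, most were wider in shDnmt3L at the ends as elsewhere. Of 2251 pairs of end peaks that overlapped one to one, 81.0% (Wilson 95% interval 79.3 to 82.6%) were wider in shDnmt3L, against 81.5% in the rest and 81.7% of all such pairs. The median gain was 150 bp (95% interval 135 to 163) at the ends and 141 bp (138 to 145) in the rest, a difference of 9 bp (−6.52 to 22.3) whose interval included 0. With a window of 2 Mb the difference was 39 bp (2.88 to 61.4), an interval that excluded 0. The median gain was 32 bp on the telomere side and 32 bp on the centromere side, at the ends and in the rest alike. At least 2 times the shGFP width was reached by 69 pairs, 3.07%, where 2.94% of all pairs reached it. Of the shDnmt3L end peaks, 105 lay over 2 or more shGFP peaks, 3.86% (3.20 to 4.65%), against 2.93% (2.76 to 3.10%) in the rest and 3.27% of the whole list.

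Single pairs differed by several kb. The largest gain was on chromosome 4, where chr4:151500387-151503405 (3019 bp) in shGFP corresponded to the 12.5 kb shDnmt3L peak named above, a gain of 9.52 kb. The next gains were 6.45 kb at chr19:56791758-56800523, 6.14 kb at chr10:126515306-126523122, 6.13 kb at chr11:119014307-119022527 and 6.10 kb at chr6:145809743-145817867, given by the shDnmt3L peak. Their shGFP partners were between 1675 and 2313 bp wide. The largest losses were smaller. A shGFP peak of 4710 bp at chr10:126992867-126997576 was 2083 bp in shDnmt3L, one of 5113 bp at chr11:118121970-118127082 was 2502 bp, and one of 4309 bp at chr10:126739400-126743708 was 2020 bp.

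The last peak of each chromosome was, by its median, somewhat narrower and lower in score than end peaks as a whole. Over the 18 chromosomes its median width was 1728 bp in shGFP (1010 to 4452) and 2156 bp in shDnmt3L (935 to 4560), and its median score was 93.6 and 101. It had a partner in the other list on 13 chromosomes in shGFP and on 15 in shDnmt3L, and on 4 chromosomes both lists ended on the same base. Among the chromosomes with the most extreme density, the last shGFP peaks were chr4:155602974-155607425 (score 503), chr9:123842459-123845172 (score 429), chr16:98251771-98253490 (score 109), chr13:120281265-120282434 (score 134), chr17:95081321-95082667 (score 55.2) and chr18:90727464-90729401 (score 74.2). Each overlapped the last shDnmt3L peak of its chromosome. The lists ended farthest apart on chromosome 12, where the last shDnmt3L peak lay 994 kb before the last position, and on chromosome 14, where the last shGFP peak lay 412 kb before it.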

How the data were processed

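The authors deposited peak lists, 1 for each library, that give every peak's position, name and score. Per the submitters' processing notes, the tools included MACS 1.4.1, Bowtie 0.12.7 and CASAVA 1.8, on build mm9, with no roles stated. The authors' score is used as deposited and only to rank or filter peaks within a list. No score lies below 50.01 (control list) or 50 (knockdown list), which would be a threshold of 1e-05 on the −10 log10 scale, a reading from the values alone. Whether an input control was used, and how duplicate reads were treated, is not given in the sources used here. Either can move the number and width of peaks. Starts, deposited counted from 0, are printed counted from 1.

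Values were computed in Python 3.11.15 with pandas 2.3.3, scipy 1.17.1 and numpy 2.4.6, and the code was tested on simulated data. Distances run from a peak's midpoint to the last position. Median differences carry order-statistic intervals. Intervals of covered share and covered length are rescaled from those of peak numbers and leave out variation in peak width. The named regions follow 1 rule: the chromosomes at either extreme of the shGFP density ratio, 3 at each, and their last peaks, the 5 highest scores with and without a partner per list, the 10 widest shDnmt3L and 5 widest shGFP end peaks, the 5 largest gains and 3 largest losses among pairs, and the 5 highest and 3 lowest windows of 1 Mb. Other peaks and chromosomes named were chosen after their values were seen. The members and lists were chosen with earlier results of these data known. Gene tables at hand were on GRCm38, so no gene or sequence was placed on a peak.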

Additional observations from a re-analysis of the deposited data

How the results depend on the processing

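Apart from leaving out each chromosome, 84 alternative values were computed, of which 59 stayed within the main interval, 22 moved beyond it and 3 reversed. The 59 include values that could hardly move. Cutting to equal length left the shDnmt3L list whole, so its density, covered share, width and wide-peak values were unchanged. Wide-peak values were also unchanged by that cut in shGFP and at scores of 100 or more. For shGFP wide peaks the main log2 interval was −4.40 to 3.78. At 2 Mb the log2 ratio of density was −0.0114 in shGFP (0.74 at 5 Mb) and 0.0917 in shDnmt3L (0.81), and that of covered share −0.0191 and 0.17. The width difference was −2 and 9 bp, the shared difference 2.30 and −3.59 points (1.68 and −1.40 without chromosome 15 as well), the log2 ratio of wide-peak density in shDnmt3L 0.49, and the difference in pair gain 39 bp. At 10 Mb the log2 ratios of density were 0.98 and 1.02 and those of covered share 1.08 and 1.10, which are ratios of 1.97, 2.03, 2.11 and 2.15. At scores of 100 or more the same log2 ratios were 0.94, 1.02, 1.02 and 1.11, and the width difference in shDnmt3L was 175 bp. When the lists were cut to equal length, shGFP had a log2 density ratio of 0.79 (a ratio of 1.73) and a shared difference of 2.83 points. Without the last 1 Mb the log2 ratios of density were 0.92 and 0.99 (ratios of 1.89 and 1.99).

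Leaving out each chromosome in turn gave log2 ratios of density from 0.64 to 0.84 in shGFP and 0.72 to 0.91 in shDnmt3L, and of covered share from 0.72 to 0.94 and 0.82 to 1.02. For wide peaks they went from 0.90 to 1.54 in shDnmt3L and 0.97 to 1.63 in shGFP. The width difference ranged over 70 to 90 bp in shGFP and 52 to 72 bp in shDnmt3L, the shared difference over 4.14 to 5.57 and −0.0764 to 1.33 points, the log2 ratio of list shares over 0.0531 to 0.0816, and the difference in pair gain over 6 to 12.5 bp. What causes these shifts was not tested. For shGFP peaks of 10 kb or more there is no value at 2 Mb or without chromosome 10, since no such end peak is left. The settings without the last 1 Mb, with equal weight for each chromosome, with 2 choices at once, and for covered length between the lists were chosen after seeing the data. No paired analysis was possible because neither hairpin has more than 1 library. How far depth limits the calling of weak peaks cannot be given, since it is unknown.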
